A study of Mus musculus with 6 samples.

Results

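The miR-34 and miR-449 family was examined in small RNA libraries of epididymal white adipose tissue (WAT) from male C57BL6/J mice. The members were selected by name, as every arm listed for miR-34a, miR-34b, miR-34c, miR-449a, miR-449b and miR-449c, which gave 11 of the 1983 rows of the table. The family was picked on account of measured values, since the level of miR-34c-5p in the library labelled Wt replicate 2 was already known, and the levels in that library are therefore given as a description without a test. Libraries came from 3 wild type (Wt) mice and 3 mice with an angiotensinogen transgene (Agt Tg), 1 library per mouse. In Agt Tg mice the transgene is driven by the aP2 promoter, that of a fatty acid binding protein of adipocytes that macrophages also make. Angiotensinogen itself is not a small RNA, so the genotype could not be checked in these libraries. The methods describe a low fat diet for these mice and the labels a chow diet, in both genotypes, and the age was not given in the sources used here. Library totals lay between 6387766 and 10562634 reads. The table gives log2 values of reads scaled to a library total of 10000000, called normalised reads here before the log is taken. Normalised reads below 10 had all been set to 10, a log2 value of 3.32. This lower limit is called the floor here, and it stood for 6.39 to 10.6 reads. Wt replicate 2 stood apart from the other 5 libraries in this family and in other miRNAs described below, and the genotype comparison is given with and without it. All rows carry human miRNA names, so that a row at the floor says only that fewer reads than this were assigned to that human-named sequence.

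miRNAs are short RNAs that pair with mRNAs mainly through their seed, bases 2 to 8, and lower the output of those mRNAs. The 5p arms of the miR-34 and miR-449 family share a seed and with it many predicted targets, among them regulators of the cell cycle. miR-34a is made in most tissues and is a well known transcriptional target of p53, whereas miR-34b and miR-34c, made from a common transcript, and the miR-449 cluster are best known from testis and from epithelia with motile cilia. In adipose tissue miR-34a has been studied mostly for its rise in obesity.

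The sequences below are shown because they define which mouse arms share a seed. RefSeq (GRCm38.p6) held 9 mature sequences of the family, and 8 of the 11 rows matched one of them by name, with the row miR-449a, which names no arm, set to the 5p arm. The seed is in capitals and the rest in lower case, from 5′ to 3′. The first 3 match by name rows that exceeded the floor and the other 3 share a seed with one of them. Human sequences, to which the row names refer, were not available here, so the mouse sequences do not show what was counted in a row. Sequences of miR-34c-5p and of the miR-449b arms were not used here.
mmu-miR-34a-5p: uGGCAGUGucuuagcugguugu
mmu-miR-34b-3p: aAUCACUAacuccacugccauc
mmu-miR-449a-5p: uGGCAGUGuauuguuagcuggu
mmu-miR-34b-5p: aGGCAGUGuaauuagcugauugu
mmu-miR-449c-5p: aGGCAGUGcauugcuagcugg
mmu-miR-34c-3p: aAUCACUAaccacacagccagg

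The seed GGCAGUG was found in 4 of the 1679 mouse mature miRNAs searched, all 4 of them of this family (miR-34a-5p, miR-34b-5p, miR-449a-5p and miR-449c-5p). miR-34c-5p and the miR-449b arms were not among those searched, so their seeds were not compared. The seed AUCACUA of miR-34b-3p was found in 2, miR-34b-3p and miR-34c-3p. Compared position by position from the 5′ end, miR-34a-5p and miR-449a-5p had the same base at 15 of 22 positions, and miR-34b-3p and miR-34c-3p at 17 of 22. No row of the family above the floor shared all of its values with another row of the table (0 such pairs).

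The genes lie at 3 places of the mouse genome (GRCm38, GENCODE M21). Mir34a is on chromosome 4 from 150068454 to 150068555 on the plus strand, in an exon of Gm37795, a transcript that awaits experimental support. Mir34c (51103034 to 51103110) and Mir34b (51103562 to 51103645) are on the minus strand of chromosome 9 with 451 bases between them, in an intron of Btg4, which runs on the opposite strand. Mir449c, Mir449b and Mir449a lie within 1642 bases of chromosome 13, from 113035983 to 113037624 on the plus strand, in an intron of Cdc20b on the same strand.

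Of the 11 rows, 3 were above the floor in all 6 libraries (miR-34a-5p, miR-34b-3p and miR-34c-5p), 1 was above it only in Wt replicate 2 (miR-449a), and 7 were at the floor in every library. The 7 were miR-34a-3p, miR-34b-5p, miR-34c-3p, miR-449b-3p, miR-449b-5p, miR-449c-3p and miR-449c-5p. Over all 1983 rows 81.2% were at the floor in every library. For each of the 3 miR-34 genes the row of a single arm was above the floor, the 5p arm of miR-34a and miR-34c and the 3p arm of miR-34b. These are human-named rows, and whether the mouse sequence of each other arm would have been assigned to its row was not tested.

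**Figure D1:**
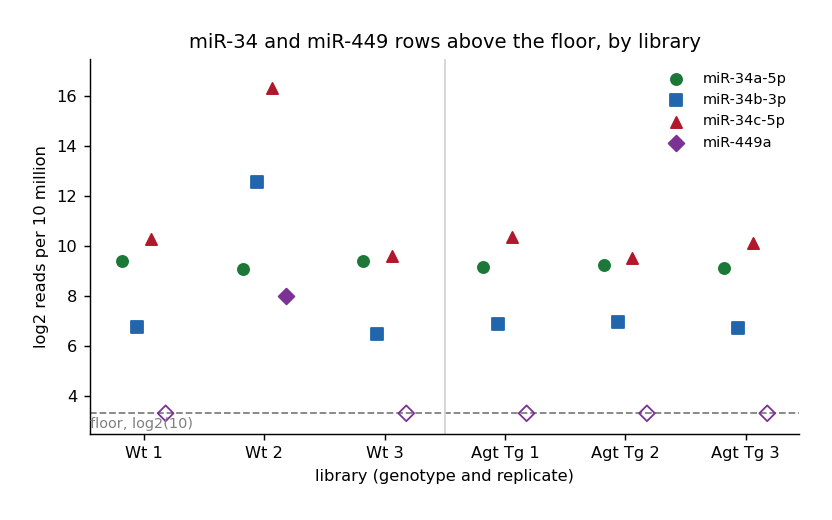
Deposited log2 values (log2 of normalised reads, which are reads per 10000000) of the 4 rows of the family above the floor, for each of the 3 Wt and 3 Agt Tg libraries. Filled symbols are values above the floor, open symbols values at the floor (dashed line). In Wt replicate 2 miR-34c-5p, miR-34b-3p and miR-449a stood far above the other 5 libraries, while miR-34a-5p did not.

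miR-34a-5p, the arm of the p53-responsive miR-34a, was the most even of the 4. It had 514, 427 and 663 reads in Wt replicates 1, 2 and 3, which is 687, 545 and 675 normalised reads. In Agt Tg replicates 1, 2 and 3 it had 602, 386 and 590 reads, which is 581, 604 and 559 normalised reads. Wt replicate 2 was the lowest of the 6 libraries, and the Wt and Agt Tg groups overlapped through this library only. Its rank by abundance was between 119 and 135 in each library. Counting error alone gave a 95% interval (exact Poisson, for counting error only) of 494 to 599 normalised reads in Wt replicate 2 and 629 to 749 in Wt replicate 1.

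miR-34c-5p, from the miR-34b and miR-34c transcript, was the row with the most reads of the family. It had 934, 64135 and 763 reads in Wt replicates 1, 2 and 3, or 1249, 81817 and 777 normalised reads. In Agt Tg replicates 1, 2 and 3 it had 1367, 475 and 1188 reads, or 1319, 744 and 1125 normalised reads. Wt replicate 2 was 62.1 times as high as the next highest library, Agt Tg replicate 1, and 72.7 times as high as the median of the other 5. There miR-34c-5p was the row ranked 15 in abundance, against ranks of 99 to 116 in the others. Of the listed reads of Wt replicate 2 it made up 1.48%. In whole tissue, more cells of a type and more RNA per cell cannot be told apart as the source of such a level.

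miR-34b-3p, from the same transcript, was lower in every library and also stood out in Wt replicate 2. It had 81, 4773 and 89 reads in Wt replicates 1, 2 and 3, or 108, 6089 and 90.6 normalised reads. In Agt Tg replicates 1, 2 and 3 it had 122, 81 and 114 reads, or 118, 127 and 108 normalised reads. Wt replicate 2 was 48.0 times as high as the next highest library, here Agt Tg replicate 2, and 56.2 times as high as the median of the other 5.

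miR-449a, of the Cdc20b cluster, had 203 reads in Wt replicate 2, or 259 normalised reads, and was at the floor in the other 5 libraries. This value was 25.9 times the floor. Wt replicate 2 held 316 reads of miR-34c-5p for each read of miR-449a (95% interval 275 to 364, exact binomial, for counting error only). At that ratio the other 5 libraries would hold 2.35 to 4.17 normalised reads of miR-449a, and at the ratio to miR-34b-3p 3.85 to 5.39, all of which lie under the floor of 10. A proportional presence of miR-449a in those libraries was therefore not detectable at this depth.

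Within Wt replicate 2 the human-named rows of opposite arms can be compared with the floor. Where mouse and human sequences differ, a row at the floor need not mean a lack of that mouse arm. miR-34c-5p stood at 8182 times the floor of that library and miR-34c-3p at or under it. miR-34b-3p stood at 609 times the floor and miR-34b-5p at or under it.

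Summed over the family, the members made up 1.61% of listed reads in Wt replicate 2 (95% interval 1.60% to 1.62%, exact binomial). In the other libraries the sum was 0.0377% in Wt replicate 1, 0.0270% in Wt replicate 3, and 0.0378%, 0.0285% and 0.0327% in Agt Tg replicates 1, 2 and 3. The share in Wt replicate 2 was 49.2 times the median of the others, and this library held 89.7% of all reads of the family. The composition differed too. miR-34a-5p made up 0.614% of the reads of the family in Wt replicate 2 against 28.8% to 43.8% elsewhere, where miR-34c-5p made up 50.4% to 65.4%.

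Among the other 5 libraries the log2 values spanned 0.30 for miR-34a-5p, 0.48 for miR-34b-3p and 0.83 for miR-34c-5p, and the rows were not in the same order. miR-34c-5p was highest in Agt Tg replicate 1 and Wt replicate 1 and lowest in Agt Tg replicate 2 and Wt replicate 3, so that each genotype had high and low libraries. The intervals for counting error of the lower pair (678 to 814 and 723 to 834 normalised reads) lay below those of the other 3 libraries, of which the lowest bound was 1062. For miR-34b-3p the order was another one, with Agt Tg replicate 2 the highest and Wt replicate 3 the lowest, and all 5 intervals overlapped. miR-34b-3p had at most 122 reads in these libraries, which limits its precision.

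**Figure D2:**
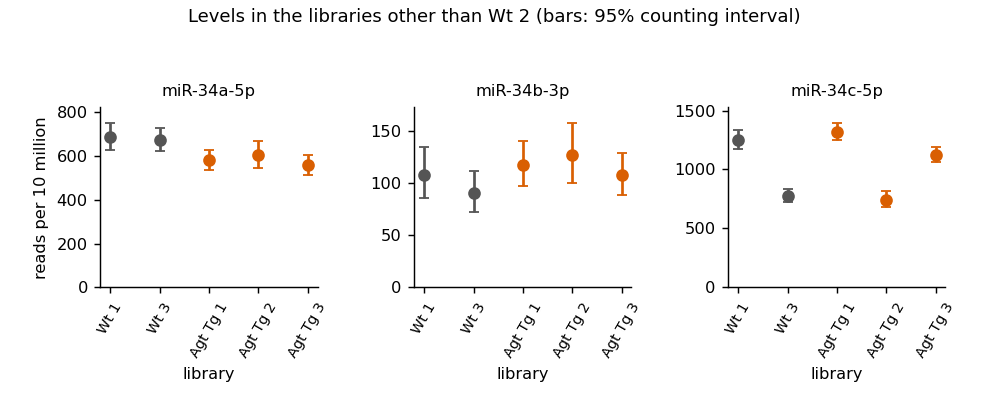
Normalised reads (reads per 10000000, linear axes) of miR-34a-5p, miR-34b-3p and miR-34c-5p in the 5 libraries other than Wt replicate 2 (grey Wt, orange Agt Tg). Points are single libraries and bars the 95% interval for counting error. miR-34a-5p was lower in the 3 Agt Tg libraries (559 to 604) than in the 2 Wt libraries (675 and 687), while the genotypes overlapped in the other rows.

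Ratios between rows of the same library do not depend on how libraries are scaled. Reads of miR-34c-5p per read of miR-34b-3p were 13.4 in Wt replicate 2 (95% interval 13.0 to 13.8). In Wt replicates 1 and 3 the ratio was 11.5 (9.18 to 14.7) and 8.57 (6.88 to 10.8), and in Agt Tg replicates 1, 2 and 3 it was 11.2 (9.31 to 13.6), 5.86 (4.62 to 7.52) and 10.4 (8.59 to 12.7). The ratio in Wt replicate 2 was the highest, and its interval overlapped those of Wt replicate 1 and Agt Tg replicate 1. Agt Tg replicate 2 had the lowest ratio, with an interval below those of Wt replicate 1 and Agt Tg replicates 1 and 3.

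Reads of miR-34c-5p per read of miR-34a-5p differed far more, with 150 in Wt replicate 2 (137 to 166) against 1.15 to 2.27 elsewhere. For miR-34b-3p per read of miR-34a-5p the values were 11.2 in Wt replicate 2 and 0.134 to 0.210 in the others. Thus both products of the chromosome 9 transcript were high together in Wt replicate 2, and the product of the chromosome 4 gene was not.

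**Figure D3:**
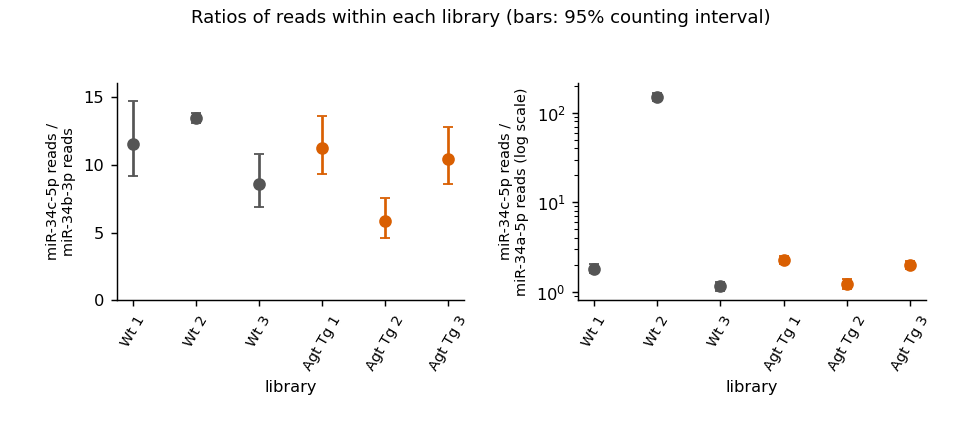
Reads of miR-34c-5p per read of miR-34b-3p (left, linear axis) and per read of miR-34a-5p (right, log axis) within each of the 6 libraries, with 95% intervals for counting error (grey Wt, orange Agt Tg). The left ratio was between 5.86 and 13.4 in all libraries, and the right one was 150 in Wt replicate 2 and at most 2.27 elsewhere.

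The comparison of Agt Tg with Wt mice asks whether overexpression of angiotensinogen in adipose tissue goes with other levels of these miRNAs. Since Wt replicate 2 is a library of the control genotype, it was made with and without this library. Genotype was the single term of a limma model, with the variance trended on the mean, over all rows that exceeded the floor in 3 or more libraries. Rows were called where the unadjusted p was 0.05 or less and the log2 difference was 1 or more in either direction. miR-34a-5p, miR-34b-3p and miR-34c-5p could be tested. The other 8 rows of the family had too few values above the floor.

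With all 6 libraries, mean log2 values of miR-34c-5p were 12.07 ± 3.70 in Wt and 10.01 ± 0.43 in Agt Tg mice (SD, n = 3 each), a log2 difference of −2.06 (standard error 1.62, Agt Tg minus Wt). For miR-34b-3p they were 8.61 ± 3.43 and 6.87 ± 0.12, a difference of −1.74 (standard error 1.50). For miR-34a-5p they were 9.30 ± 0.19 and 9.18 ± 0.06, a difference of −0.12 (standard error 0.22), which turned to 0.03 under TMM scaling and under limma-voom with it. The values of these 3 rows include the library that led to the choice of the family and are given without a test. Of the 329 rows tested, members or not, 4.86% were called, which is 16 rows and became 33 without Agt Tg replicate 1.

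Without Wt replicate 2 the signs of miR-34b-3p and miR-34c-5p turned. miR-34c-5p had mean log2 values of 9.94 ± 0.48 in Wt (SD, n = 2) and 10.01 ± 0.43 in Agt Tg mice (SD, n = 3). Its log2 difference was 0.07 (standard error 0.33, 95% interval −0.75 to 0.89, limma adjusted p = 0.921). The difference was −0.27 with Wt replicate 3 also left out, and −0.11 with Agt Tg replicate 1 also left out. miR-34b-3p had 6.63 ± 0.18 in Wt and 6.87 ± 0.12 in Agt Tg mice, a difference of 0.24 (standard error 0.26, 95% interval −0.38 to 0.87, limma adjusted p = 0.626).

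miR-34a-5p had 9.41 ± 0.02 in Wt and 9.18 ± 0.06 in Agt Tg mice without Wt replicate 2, a difference of −0.23 (standard error 0.19, 95% interval −0.69 to 0.23, limma adjusted p = 0.518). The groups did not overlap, and an exact two-sided permutation test gave p = 0.1, the smallest that 2 libraries against 3 allow. Groups with Agt Tg libraries below both Wt libraries were seen in 26.5% of the 321 rows tested. The median log2 difference of all these rows was −0.18, so that miR-34a-5p lay 0.05 below the median (−0.05). Relative to the same median miR-34c-5p lay at 0.25 and miR-34b-3p at 0.43. TMM scaling moved the median of all rows to −0.02, and scaling to miR-191-5p moved it to 0.04, with miR-34a-5p at −0.07 and −0.01.

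None of the 3 rows was called without Wt replicate 2 (0 of 3), while 6.85% of the 321 rows were. That is 22 rows, 12 higher and 10 lower in Agt Tg mice, and 15 higher and 6 lower under TMM scaling. No row of the table had an adjusted p under 0.05 (0 rows, limma, against 46 at an unadjusted p under 0.05). limma-voom likewise gave 0 rows. The count of called rows was 49 with Agt Tg replicate 1 also left out, where 54 of 304 rows had an adjusted p under 0.05 (limma), and 5 with Wt replicate 1 also left out. The summed share of the family was 0.0330% ± 0.0047 in Agt Tg (SD, n = 3) and 0.0324% ± 0.0076 in Wt mice (SD, n = 2), which is a difference smaller than either spread.

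**Figure D4:**
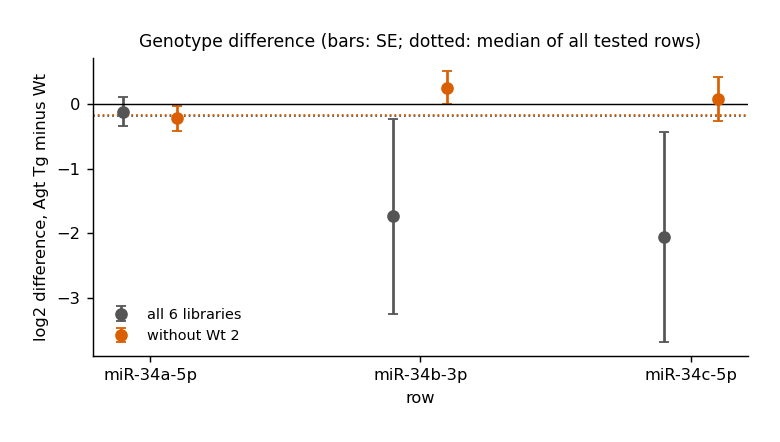
Log2 difference, Agt Tg minus Wt, of the 3 tested rows with all 6 libraries (grey) and without Wt replicate 2 (orange). Bars are limma standard errors, dotted lines the medians of all tested rows (−0.19 and −0.18). The differences of −2.06 for miR-34c-5p and −1.74 for miR-34b-3p became 0.07 and 0.24 without this library.

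Other miRNAs linked to p53 were taken as a list of 10: miR-192-5p, miR-194-5p and miR-215, whose genes p53 activates, miR-143-3p, miR-145-5p, miR-16-5p and miR-15a-5p, miR-107, miR-200c-3p and miR-605. Of these, 8 exceeded the floor in some library and 7 were tested, while miR-215 and miR-605 were at the floor throughout. Without Wt replicate 2, 0 of the 7 were called in either direction, where 6.85% of all 321 tested rows were. At that share a count of 0 among 7 rows does not set them apart. Their median log2 difference was −0.08, against −0.18 over all rows. The most abundant were miR-143-3p, with a log2 difference of 0.30 (standard error 0.18), miR-16-5p with −0.22 (standard error 0.22) and miR-145-5p with 0.07 (standard error 0.38). With all 6 libraries 0 of 7 were called, where 4.86% of all 329 rows were, with a median of −0.22 against −0.19 over all rows. In Wt replicate 2 miR-192-5p had a log2 value of 15.85 against 12.05 to 12.25 elsewhere, and miR-194-5p 11.64 against 8.16 to 8.40. miR-200c-3p, which also stands in the epithelial list below, was at 9.51 there and at the floor elsewhere. Only this library brought it over the floor. miR-107 and miR-15a-5p were also highest there, but by 0.22 and 0.04 on the log2 scale. The share of all rows highest in this library was not counted. miR-16-5p, miR-143-3p and miR-145-5p of Wt replicate 2 lay within the range of the others.

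Other rows with a profile like that of miR-34c-5p were ranked by the root mean square difference of log2 values, each row centred on its mean, over the 6 libraries. Of 267 rows above the floor in all libraries, outside the family, the nearest were miR-200b-3p (0.32) and miR-92b-3p (0.58), where miR-34b-3p had 0.39, miR-34a-5p 2.46 and the median row 2.42. miR-182-5p (0.94), miR-192-5p (1.06), miR-194-5p (1.16), miR-375 (1.19), miR-205-5p (1.50), miR-204-5p (1.57), miR-181c-3p (1.60) and miR-181d (1.72) followed. All 10 were higher in Wt replicate 2 than in any other library, and 6 of them by more than 2 on the log2 scale. Since the profile of miR-34c-5p is itself high in Wt replicate 2, this follows from how the rows were picked. miR-200b-3p, of a family that keeps epithelial cells in their state, had a log2 value of 13.12 in Wt replicate 2 against 6.44 to 7.48 elsewhere. miR-200b-3p, miR-182-5p, miR-375 and miR-205-5p stand in the list of epithelial miRNAs described next, and miR-192-5p and miR-194-5p in that of p53-linked miRNAs. Their place in these lists was not set against the 267 ranked rows. Of the p53-linked list, miR-200c-3p, also in the epithelial list, led in Wt replicate 2 by 6.19 on the log2 scale. miR-107 and miR-15a-5p led there by only 0.22 and 0.04, and miR-16-5p, miR-143-3p and miR-145-5p were not highest there. Whether p53 or a cell type had a part in the levels of miR-192-5p and miR-194-5p was not tested. The likeness rests on 1 library, Wt replicate 2.

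**Figure D5:**
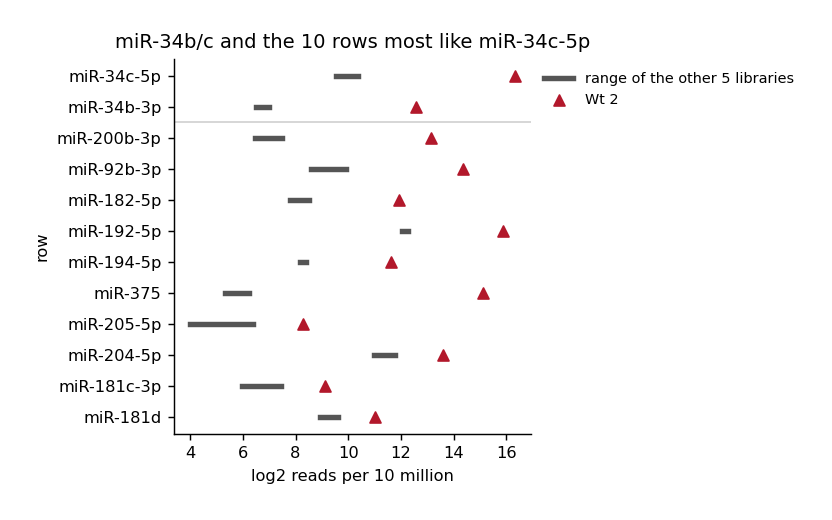
Log2 of normalised reads (reads per 10000000) of miR-34c-5p, miR-34b-3p and the 10 rows with the most similar profile, in order of similarity. Triangles are Wt replicate 2 and bars the range of the other 5 libraries. In each row the triangle lies to the right of the bar, by 5.96 for miR-34c-5p, 5.59 for miR-34b-3p and 5.64 for miR-200b-3p.

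Markers of other cell types were read beside these values. Of 10 epithelial miRNAs 8 exceeded the floor in some library and 4 in all. The 4 were highest in Wt replicate 2, by 8.87 (miR-375), 5.64 (miR-200b-3p), 3.43 (miR-182-5p) and 1.89 (miR-205-5p) on the log2 scale. miR-200a-3p, miR-141-3p and miR-183-5p led there by 6.60, 6.37 and 2.95, with values at the floor among the other libraries. miR-200c-3p was above the floor only there, which fixed its place in advance. The share of all rows highest in this library was not counted. The summed level of the 8 was 54620 normalised reads in Wt replicate 2, 482 to 678 in the other Wt and 388 to 628 in the Agt Tg libraries. miR-429 and miR-96-5p were at the floor throughout. Of a list of 10 miRNAs of gonad and epididymis other than this family, 10 were at the floor in all libraries, miR-202-5p included, but only 3 of these have a mouse gene of the same number in RefSeq. Of 8 adipocyte miRNAs 7 were above the floor in all libraries, and miR-193b-3p was at the floor. Their sum was 822571 normalised reads in Wt replicate 2 and 771751 to 1043760 in the others. Its largest members were miR-143-3p and miR-26a-5p, with log2 values of 18.76 and 17.81 in Wt replicate 2. miR-378a-3p was lowest in Wt replicate 2, at 15.24 against 15.42 or more in the others. miR-107 was highest there by 0.22. miR-103a-3p, miR-143-3p, miR-30a-5p, miR-26a-5p and miR-146b-5p lay within the range of the others. A difference in adipocyte content was not tested. The part of any other cell type in the levels of miR-34c-5p, miR-34b-3p and miR-449a was not tested.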

How the data were processed

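Epididymal WAT of 3 Wt and 3 Agt Tg mice was analysed, 1 small RNA library each, grouped by the sample titles. The authors mapped reads to miRBase precursors, kept mature miRNAs and built the profiles in the Gunaratne pipeline, with GRCm38.p4 and Qseq also named. How reads matching several members were assigned, the miRBase release and the mismatches permitted were not given in the sources used here. Values deposited by the authors are log2 reads per 10000000 of the library total with a floor of 10, as worked out from the values: 1924 of 1924 linear values above the floor were whole reads within 0.02, which gave the totals. Of the columns of values, 0 were without a sample. The 6 column names share all but their last part, and what the shared part stands for was not given.

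Tests used limma 3.58.1 in R 4.3.3 on the deposited log2 values, with moderated statistics, a variance trend and Benjamini-Hochberg adjustment over all tested rows. All rows above the floor in 3 or more libraries were fitted together, 329 with 6 libraries and 321 without Wt replicate 2. TMM factors (30% and 5% trimmed) were computed from the recovered reads. Exact tests and intervals used scipy 1.17.1 in Python 3.11.15, and figures matplotlib 3.10.9. The fit was run on simulated data with 4-fold changes in 40 rows, in 10 runs. It called 97.5% of these rows with 6 libraries and 97.75% without Wt replicate 2, and 0.83% and 0.39% of the unchanged rows. All simulated rows had the same spread and no library stood apart, so the simulation does not cover a library like Wt replicate 2. Each library counted as 1 replicate, by the sample titles. No 2 libraries agreed within sampling noise (chi-square per degree of freedom at least 195), which by itself does not show that they came from different mice. The labels do not say that libraries of the same number belong together, and their deviations from the group means correlated at 0.22, −0.18 and −0.21 over rows.

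The members and lists were chosen with earlier results of these data known. The rows named were every member, the 10 rows nearest to miR-34c-5p, and from each list its counts and leading members. The seeds searched were those of miR-34a-5p and miR-34b-3p. Rows singled out beyond these were chosen after their values were seen. Alternatives were TMM, miR-191-5p scaling, log2(CPM + 1), limma-voom, no filter, a mean CPM of at least 10, a replicate block, and leaving out each library. Rows at the floor in every library have no variance and were left out also without a filter. Other measurements of the study were not analysed here.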

Additional observations from a re-analysis of the deposited data

How the results depend on the processing

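Without a filter miR-449a could also be fitted with all 6 libraries, at −1.56 (standard error 1.28). This value depends on the floor and rests wholly on Wt replicate 2, the only library with miR-449a above it, so it is given without a test. With 6 libraries, 7 alternatives other than leaving out libraries gave −2.06 to −1.88 for miR-34c-5p, −1.74 to −1.57 for miR-34b-3p and −0.13 to 0.03 for miR-34a-5p, the last turning under TMM (0.0315) and limma-voom (0.0283). Leaving out each library gave −3.29 to 0.07, −2.79 to 0.24 and −0.23 to −0.06. Without Wt replicate 2 the same 7 gave 0.07 to 0.31, 0.19 to 0.47 and −0.26 to −0.01, and leaving out a further library −0.27 to 0.41, 0.11 to 0.37 and −0.26 to −0.20. Without Wt replicate 2 no member was called in any of these. With Wt replicate 2, an alternative chosen after seeing the data, the summed share differed by −0.525 percentage points. Taking values at the floor as the floor, it differed by 0.000703, against 0.000639.

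A mean CPM of at least 10 lowered the rows called from 16 to 3 of 209, and without Wt replicate 2 from 22 to 4 of 205. Leaving out each library gave 11 to 33 and 5 to 49 rows. The largest counts were without Agt Tg replicate 1, where 54 of 304 rows had an adjusted p under 0.05 when Wt replicate 2 was also left out, and the smallest were 11 without Agt Tg replicate 3 and 5 without Wt replicates 1 and 2, where the lone Wt library is assumed to vary like the others. With 6 libraries 9 of 16 rows called were higher, and 11 of 15 under TMM; without Wt replicate 2 it was 12 of 22, and 18 of 22 under miR-191-5p scaling. With the replicate block 17 and 22 rows were called, and miR-34c-5p was −2.06 with 6 libraries and 0.31 without Wt replicate 2, where no call of a member changed. All 10 nearest rows were also the 10 nearest after TMM scaling. Differences under the floor, 6.39 to 10.6 reads, could not be measured.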

Other observations

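Other marker lists gave these values in Wt replicate 2, the library in which miR-34b, miR-34c and miR-449a were high. Of 4 erythroid miRNAs, all above the floor in every library, the sum was 50938 normalised reads in Wt replicate 2 and 93086 to 207942 in the other 5, and none was highest there. Of 7 muscle miRNAs 3 exceeded the floor in some library, with a sum of 1699 in Wt replicate 2 and 496 to 651 in the others. Nearly all of this sum was miR-133a, with a log2 value of 10.72 in Wt replicate 2 against 8.92 to 9.35 elsewhere. miR-1 was at 3.67 there and at the floor elsewhere, and miR-499a-5p was at the floor there and at up to 4.12 elsewhere. miR-133b, miR-206, miR-208a and miR-208b were at the floor. Of 5 leukocyte miRNAs 4 were above the floor, with a sum of 41780, inside the range of the others (28282 to 42067), and miR-155-5p was at the floor. Of the 4, miR-142-3p was highest in Wt replicate 2, by 0.44 on the log2 scale. miR-142-5p, miR-150-5p and miR-223-3p lay within the range of the others. miR-122-5p, of liver, was at 91.8 against 74.9 to 145. Of 3 miRNAs of nervous tissue 2 were above the floor, with a sum of 441 against 196 to 394, and miR-124-3p was at the floor. Nearly all of this sum was miR-128, highest in Wt replicate 2 by only 0.13 on the log2 scale. miR-9-5p, at 4.52 there, lay within the range of the others (3.59 to 5.75).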
